A study of Mus musculus with 3 samples.

Results

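miR-21a is one of the most widely expressed microRNAs of mammalian tissues. Its forms were followed in small RNA libraries of CD1 mice (outbred animals), 1 library from mature sperm, 1 from adult testis and 1 from adult uterus. The sperm came from the cauda epididymis, where sperm are stored before ejaculation, and had been treated with a buffer meant to lyse somatic cells. Neither age nor genotype nor the number of animals behind a library is given in the sources used here, and no library was of treated animals. A read was counted as miR-21a when its first 18 bases equalled those of the mature 5p arm (miR-21a-5p) or 3p arm (miR-21a-3p). By this rule 160 distinct read sequences of 4182219 in the series belonged to miR-21a, 137 to the 5p arm and 23 to the 3p arm. The mature sperm library held 68 of them, the adult testis library 18 and the adult uterus library 141. miR-21a was chosen by its read counts in these libraries, which were already known, and with 1 library per group there is no replicate check, so every value given is a description without a test. The intervals, all at 95%, cover counting error only: PCR copies are not independent molecules.

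A microRNA is cut from a hairpin in a primary transcript, first in the nucleus by Drosha and then in the cytoplasm by Dicer, which leaves a duplex of the 5p and 3p arms. One arm is loaded into an Argonaute protein and guides it to messenger RNAs that pair with its seed, bases 2 to 8, while the other arm is mostly degraded. The 3′ end of the loaded arm can be trimmed by nucleases or extended by terminal nucleotidyl transferases, which add adenine or uridine bases that the gene does not encode. miR-21 is known for its high level in many somatic cells and for its rise in tumours and in inflamed or injured tissue, and its known targets include the mRNA of Pdcd4, a growth inhibitor. In mouse testis it has been described in spermatogonial stem cells. In human cells the transferase PAPD5 is known to adenylate miR-21.

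The Mir21a hairpin lies on the minus strand of mouse chromosome 11, from 86584067 to 86584158 in GRCm38. In the GENCODE annotation this is inside exon 12 of Vmp1, in the untranslated part of that exon on the same strand. Both mature arms are shown because they define the reads counted; capitals mark the seed.
miR-21a-5p: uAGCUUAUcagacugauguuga
miR-21a-3p: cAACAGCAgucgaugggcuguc
miR-21c: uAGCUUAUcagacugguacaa
miR-21b: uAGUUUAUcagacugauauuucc
The 5p arm occupies 86584120 to 86584141 and the 3p arm 86584082 to 86584103, and each is 22 nt long (sequences and positions from RefSeq, GRCm38.p6). Of the mature microRNAs in the same table only miR-21c shared the seed of the 5p arm, and none shared that of the 3p arm. The table is not complete, so a microRNA that it lacks could share either seed. Within the first 18 bases, counted from 1 at the 5′ end, miR-21c differs from miR-21a-5p by A16G and G18A and miR-21b by C4U and G18A. Both miR-21b and miR-21c had 0 reads in sperm, testis and uterus. No other mature microRNA in the table starts with the same 18 bases as either arm, so no read was shared with a listed relative.

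The main 5p forms in the libraries differed at the 3′ end alone. They are shown as read, with T for U; capitals mark bases past the annotated end of 22 nt.
20 nt: tagcttatcagactgatgtt
21 nt: tagcttatcagactgatgttg
22 nt: tagcttatcagactgatgttga
23 nt: tagcttatcagactgatgttgaC
24 nt: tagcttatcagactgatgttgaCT
24 nt with added A: tagcttatcagactgatgttgaCA
23 nt with added A: tagcttatcagactgatgttgaA
29 nt: tagcttatcagactgatgttgaCTGTTGA
30 nt: tagcttatcagactgatgttgaCTGTTGAA
The C of the 23 nt form and the CT of the 24 nt form are the next bases of the hairpin, as are all 8 bases past the annotated end in the 30 nt form. An added C after base 22 or an added U after base 23 therefore cannot be told from a longer cut of the hairpin. The A that ends the other 24 nt form and the other 23 nt form is not encoded at that place.

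The level of miR-21a-5p stood apart between the libraries. There were 25495 reads among 15690722 in sperm, 469 among 23783785 in testis and 106047 among 15876066 in uterus. Set against the reads that begin as any mature microRNA of the table, this was 65936 reads per 1000000 in sperm (65129 to 66751), 2572 in testis (2345 to 2816) and 9461 in uterus (9404 to 9518). Among the microRNAs of the table with a read, miR-21a-5p ranked number 4 in sperm, number 37 in testis and number 10 in uterus. The table lacks some microRNAs, such as miR-34c-5p and miR-143-3p, which therefore count in neither the ranks nor the denominator of these levels. The intervals of the 3 libraries did not overlap on this scale, with sperm the highest and testis the lowest.

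**Figure D1:**
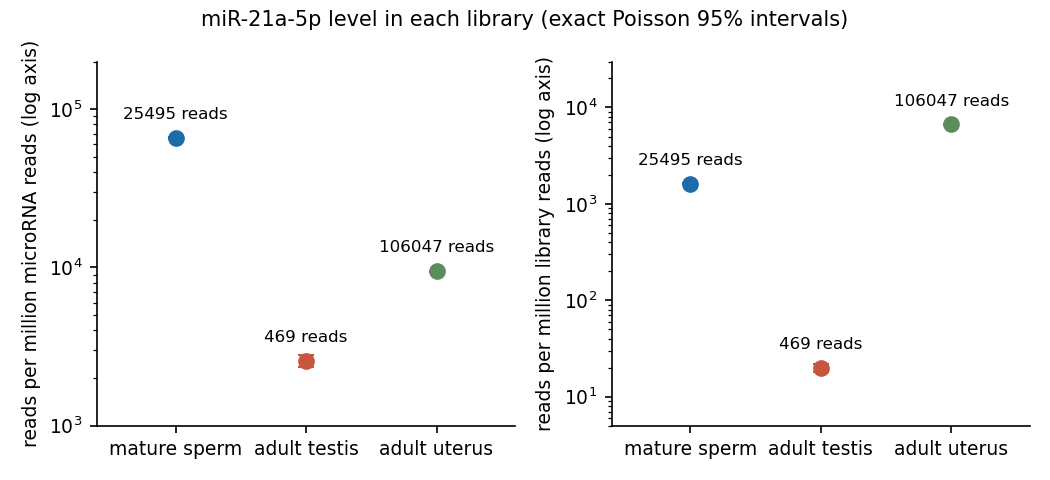
Level of miR-21a-5p in mature sperm, adult testis and adult uterus as reads per 1000000 microRNA reads (left) and per 1000000 library reads (right), both on log axes; points are single libraries, bars exact Poisson 95% intervals, some smaller than the point. Testis is lowest on both scales (2572 and 19.7), while sperm lies above uterus on the left (65936 and 9461) and below it on the right (1625 and 6679.7).

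In sperm the level per microRNA read was 25.6 times that of testis (23.4 to 28.1), a log2 ratio of 4.68. This was number 15 from the top among the 129 microRNAs that had 100 reads or more in one of the libraries, whose median log2 ratio was 0.04. A ratio of 4 or more, the mark used for a clear difference, was reached toward sperm by 33.3% of them and toward testis by 25.6%; per library read it was reached toward sperm by 48.8%. The direction held under every denominator and scaling tried, with log2 ratios between 1.71, from distinct sequences, and 6.36, from all library reads. In testis 35.7% of the reads in the microRNA denominator were longer than 26 nt, chiefly those that begin like miR-7210-5p (50308 reads, mean length 30.4 nt) and miR-12204-5p (16265 reads, 28.0 nt). Limiting the denominator to microRNA reads of 18 to 26 nt, a setting added once these lengths were known, gave a log2 ratio of 4.05.

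Against uterus, the sperm level per microRNA read was 6.97 times as high (6.87 to 7.07). Its log2 ratio of 2.80 stood beside a median of 1.01 over 219 microRNAs, of which 38.8% reached a ratio of 4 toward sperm. This order depended on the denominator. Per 1000000 library reads there were 1625 in sperm (1605 to 1645) and 6679.7 in uterus (6639.5 to 6720), a log2 ratio of −2.04, and on that scale 67.6% of the 219 reached a ratio of 4 toward uterus. MicroRNA reads made up 2.46% of the sperm library and 70.6% of the uterus library. Without let-7 and miR-98 reads in the denominator the log2 ratio was 0.59, and with the TMM factors of edgeR it was 0.92.

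Per microRNA read, miR-21a-5p was lower in testis than in uterus by a log2 ratio of −1.88 (−2.01 to −1.75), or 0.272 times as frequent. It ranked number 193 of 220 microRNAs, whose median was 0.72. Of these, 10.9% reached a ratio of 4 toward uterus per microRNA read, which miR-21a-5p did not, and 83.2% per library read. The direction held under every alternative, from −0.91 to −8.40.

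Other microRNAs moved along with miR-21a-5p between sperm and testis, among them those that mark other cells. The 7 epithelial microRNAs of the miR-200 family and miR-203 and miR-205 summed to 108198 reads per 1000000 microRNA reads in sperm, 455 in testis and 732 in the uterus. Of the 7, 6 reached a ratio of 4 toward sperm over testis, against 33.3% of all microRNAs. The 5 leukocyte microRNAs summed to 4415 in sperm, 252 in testis and 137 in the uterus. Of these, miR-146a-5p held 1557 of 1707 reads in sperm and was the 1 member with enough reads for the ratio, which it reached toward sperm; the other 4 summed to 388 in sperm, 38.4 in testis and 56.6 in the uterus. Endothelial miR-126a-3p stood at 359 in sperm, 5.48 in testis and 8.48 in the uterus. In testis miR-205-5p and the leukocyte microRNA miR-142a-3p had 0 reads. The 3 stromal microRNAs summed to 1099 in sperm, 3811 in testis and 41577 in the uterus, nearly all of it miR-199a-3p. Reads of miR-199a-3p could not be told from those of miR-199b-3p, which starts with the same bases. Without miR-199a-3p the stromal microRNAs summed to 114 in sperm, 27.4 in testis and 389.9 in the uterus. The 2 erythroid microRNAs stood at 77.6 in sperm, 258 in testis and 111 in the uterus. The part of such cells in the level of miR-21a-5p was not tested. In a mixed sample fewer cells of a type and less RNA per cell cannot be told apart.

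The 5 male germ cell microRNAs in the table summed to 54733 reads per 1000000 microRNA reads in sperm, 26828 in testis and 26.9 in the uterus, and in sperm miR-184-3p, with 18626 reads, made up most of the sum. Without miR-184-3p the order turned round, with 6561 in sperm, 21651 in testis and 12.8 in the uterus. The ratio of 4 was reached toward sperm by 1 of the 5 and toward testis by 2, which on the same scale were miR-34b-5p (124 in sperm, 8144 in testis) and miR-449a-5p (103.5 in sperm, 4903 in testis). In read counts, miR-465a-5p (1499 reads in sperm, 218 in testis, 0 in uterus) and miR-881-3p (950 in sperm, 1351 in testis, 0 in uterus) were seen in sperm and testis and not in uterus. The gonadal microRNA miR-202-5p had 2 reads in sperm, 2520 in testis and 0 in the uterus.

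The microRNAs whose profile was nearest to that of miR-21a-5p were miR-10a-5p, miR-30a-5p, miR-10b-5p, miR-24-3p and miR-23a-3p, in that order. Nearness was the Euclidean distance of log2 reads per 1000000 microRNA reads over 3 libraries, among 128 other microRNAs with at least 500 reads in 1 library. miR-10a-5p, encoded in a Hox gene cluster, was nearest at a distance of 2.19, with 63510.2 in sperm, 691 in testis and 4439 in uterus. The other 4 lay at 2.99 to 3.78. All 5 were highest in sperm. miR-30a-5p (2676 in testis, 1836 in uterus) and miR-10b-5p (2172 in testis, 950.3 in uterus) were higher in testis than in uterus and miR-24-3p (1887 in testis, 1859 in uterus) was about level, so that 3 of the 5 lacked the order of miR-21a-5p between these libraries.

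The leading 5p form differed from library to library. In sperm it was the 23 nt form with the added hairpin C, with 9420 reads or 36.9% of the arm, against 101 reads or 21.5% in testis and 18348 reads or 17.3% in uterus. In testis it was the annotated 22 nt form: 8575 reads (33.6%) in sperm, 169 (36.0%) in testis and 35135 (33.1%) in the uterus. In uterus it was the 21 nt form, counted 5359 times (21.02%) in sperm, 98 (20.9%) in testis and 36417 (34.3%) in the uterus. The annotated form thus held about the same share in each library, and the forms on either side of it did not.

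The 20 nt form was mostly seen in uterus. It had 96 reads in sperm, or 0.377% of the arm (0.305 to 0.460%), 5 in testis, or 1.07% (0.347 to 2.47%), and 10461 in uterus, or 9.86% (9.69 to 10.05%). The ratio of the 23 nt to the 22 nt form was 1.10 in sperm (1.07 to 1.13), 0.598 in testis (0.462 to 0.769) and 0.522 in uterus (0.513 to 0.532). The intervals of testis and uterus overlapped, and that of sperm lay above both. The ratio of the 23 nt to the 21 nt form was 1.76 in sperm (1.70 to 1.82), 1.03 in testis (0.773 to 1.37) and 0.504 in uterus (0.495 to 0.513), so these 3 intervals were apart.

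**Figure D2:**
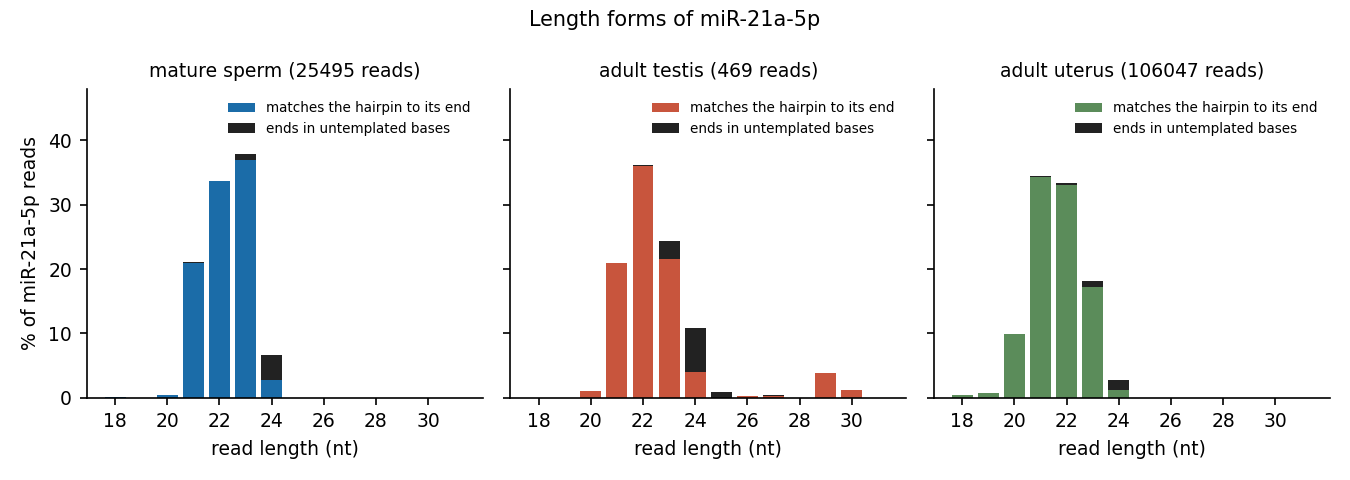
Length of miR-21a-5p reads in mature sperm, adult testis and adult uterus as a percentage of the arm's reads in that library, up to 31 nt; the coloured part of a bar matches the hairpin to its end and the black part ends in untemplated bases. The peak is at 23 nt in sperm (37.9%), 22 nt in testis (36.2%) and 21 nt in uterus (34.6%), and testis has a second group at 29 and 30 nt (3.84% and 1.28%).

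Reads shorter than 22 nt made up 21.6% of miR-21a-5p in sperm (21.1 to 22.1%), 21.96% in testis (18.3 to 25.99%) and 45.6% in uterus (45.3 to 45.9%). Reads longer than 22 nt made up 44.7% in sperm (44.04 to 45.3%), 41.8% in testis (37.3 to 46.4%) and 20.95% in uterus (20.7 to 21.2%). Sperm and testis could not be told apart in either share at this depth, and uterus lay apart from both. Among fully templated reads the call was another one: those longer than 22 nt were 39.8% of the arm in sperm (39.2 to 40.4%), 31.1% in testis (26.96 to 35.5%) and 18.5% in uterus (18.2 to 18.7%), and no interval overlapped another. The mean length was 22.3 nt in sperm, 22.7 nt in testis and 21.7 nt in uterus. These means include fully templated reads of 26 nt or longer, which were 0.0235% of the arm in sperm, 5.54% in testis and 0.00283% in uterus.

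The gap to uterus was larger for miR-21a-5p than for most other microRNAs. The share of short reads was lower by 24.01 percentage points in sperm than in uterus, while the median difference over 39 other microRNAs with at least 500 reads in both and most reads at 20 to 24 nt was 2.37 points, and 16 of the 39 (41.0%) were higher in uterus. Only 5 of the 39 had a difference further toward uterus than miR-21a-5p. Between testis and uterus the difference was −23.7 points, against a median of −1.03 over 21 others, of which 14 (66.7%) were higher in uterus and 1 lay further toward uterus. The difference between sperm and testis was −0.36 points, against a median of 13.2 over 20 others, of which 17 (85.0%) were higher in sperm.

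Long 5p reads were mostly a feature of the testis library. The 29 nt form had 3 reads in sperm, 18 in testis and 0 in the uterus, and the 30 nt form had 6 in testis and 0 in sperm and uterus. Both match the hairpin to their last base and run into its loop. Fully templated reads of 26 nt or longer came to 6 in sperm, or 0.0235% of the arm (0.00864 to 0.0512%), 26 in testis, or 5.54% (3.65 to 8.02%), and 3 in uterus, or 0.00283% (0.000583 to 0.00827%). In testis none of 29 other microRNAs with at least 500 reads and most of them at 20 to 24 nt had a larger share. Their highest value was 1.48%. This set, added after the data were seen, leaves out microRNAs by read length. Among all 35 others with at least 500 reads in testis, 2 had a larger share, miR-7210-5p (96.3%) and miR-468-5p (90.5%). Reads of 29 to 34 nt made up 69.0% of the sperm library, 79.5% of the testis library and 0.427% of the uterus library; what they share with the long miR-21a-5p reads was not tested.

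Bases that the hairpin does not encode closed 1289 of 25495 5p reads in sperm, 51 of 469 in testis and 3229 of 106047 in uterus. These are 5.06% (4.79 to 5.33%) in sperm, 10.9% (8.20 to 14.0%) in testis and 3.04% (2.94 to 3.15%) in uterus, and the intervals did not overlap. Tails of 1 base made up 82.6% of the tailed reads in sperm, 88.2% in testis and 87.4% in the uterus.

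Among tails that could be told from the hairpin, adenine was the base most often added. Tails of A alone were on 1046 reads in sperm (81.1% of the tailed reads), 43 in testis (84.3%) and 2018 in the uterus (62.5%). Tails of U alone were on 37 reads in sperm (0.145% of the arm), 1 in testis (0.213%) and 207 in the uterus (0.195%), and all 3 intervals overlapped. Tails of G alone were on 32 reads in sperm (2.48% of the tailed reads), 6 in testis (11.8%) and 453 in the uterus (14.0%). Neither a C after base 22 nor a U after base 23 is counted as a tail, since each reads as the hairpin's own.

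Most tailed reads matched the hairpin to base 22 or base 23, and of these ends the tail was more frequent behind base 23. Of reads whose hairpin match ended at base 23, an A tail was on 703 of 10237 in sperm, 27 of 135 in testis and 1193 of 20054 in uterus. These are 6.87% in sperm (6.38 to 7.37%), 20.0% in testis (13.6 to 27.7%) and 5.95% in uterus (5.63 to 6.29%), and no interval overlapped another. Of reads that ended at base 22, an A tail was on 317 of 8946 in sperm, or 3.54% (3.17 to 3.95%), 15 of 184 in testis, or 8.15% (4.63 to 13.1%), and 676 of 35897 in uterus, or 1.88% (1.75 to 2.03%). An A after base 21 reads as the annotated form, so no A tail can be seen there. A few reads whose match ended earlier had larger tailed shares in sperm, with 38 of 134 tailed behind base 20 (28.4%, 20.9 to 36.8%) and A alone on 17.2% (11.2 to 24.6%). For tails of A alone, the order behind bases 22 and 23 was testis, then sperm, then uterus. In each library this share was larger behind base 23 than behind base 22. Tails of any kind behind base 23 were on 7.98% in sperm (7.46 to 8.52%), 25.2% in testis (18.1 to 33.4%) and 8.51% in uterus (8.12 to 8.90%). There the intervals of sperm and uterus overlapped.

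**Figure D3:**
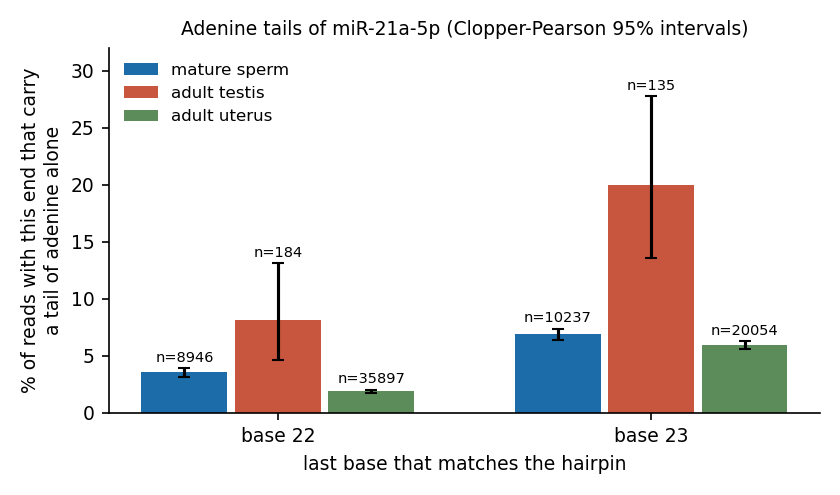
Share of miR-21a-5p reads with a tail of adenine alone, in percent of the reads whose match to the hairpin ends at base 22 or base 23; bars are mature sperm, adult testis and adult uterus, error lines Clopper-Pearson 95% intervals and n the reads with that end. Behind base 23 the share is 6.87% in sperm, 20.0% in testis and 5.95% in uterus.

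The 24 nt form with the added A had 698 reads in sperm (2.74% of the arm), 25 in testis (5.33%) and 1185 in the uterus (1.12%). Its templated counterpart of 24 nt had 726 reads in sperm, 19 in testis and 1214 in the uterus. The ratio of the templated to the adenylated form was 1.04 in sperm (0.936 to 1.16), 0.760 in testis (0.396 to 1.44) and 1.02 in uterus (0.945 to 1.11), so at that length all 3 intervals overlapped. The 24 nt form ending in an untemplated G had 19 reads in sperm, 6 in testis and 420 in the uterus.

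Among other microRNAs miR-21a-5p carried few tails that could be told from its hairpin. An A after base 21, a C after base 22 or a U after base 23 reads as templated and is not counted. Reads whose hairpin match ended at base 21 were 21.1% of the arm in sperm, 21.1% in testis and 34.7% in uterus. The comparisons that follow therefore cover visible tails only. How many tails were hidden in this way, in miR-21a-5p or in other microRNAs, was not tested. In sperm 52 of 59 others with at least 500 reads had a larger tailed share (median 12.2%), in testis 23 of 35 (median 16.3%) and in uterus 98 of 100 (median 17.5%). The share with a tail of A alone, 4.10% in sperm, 9.17% in testis and 1.90% in uterus, was near the median of the others in sperm (4.11%), above it in testis (4.19%) and below it in uterus (6.36%). Among microRNAs with at least 500 reads in both libraries and most reads at 20 to 24 nt, 65.0% had the larger tailed share in testis rather than sperm, 69.2% in uterus rather than sperm and 57.1% in uterus rather than testis. miR-21a-5p followed the first of these and went against the other two, with a tailed share 2.01 percentage points higher in sperm and 7.83 points higher in testis than in uterus. In testis 4 of 35 others had a larger A share, and in uterus 89 of 100 did. The difference between testis and uterus in A tails, 7.27 percentage points, was above that of all 21 such microRNAs in those libraries, whose median was −1.61 points. miR-21a-5p itself had 469 reads in testis, under the minimum of 500 set for the others.

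**Figure D4:**
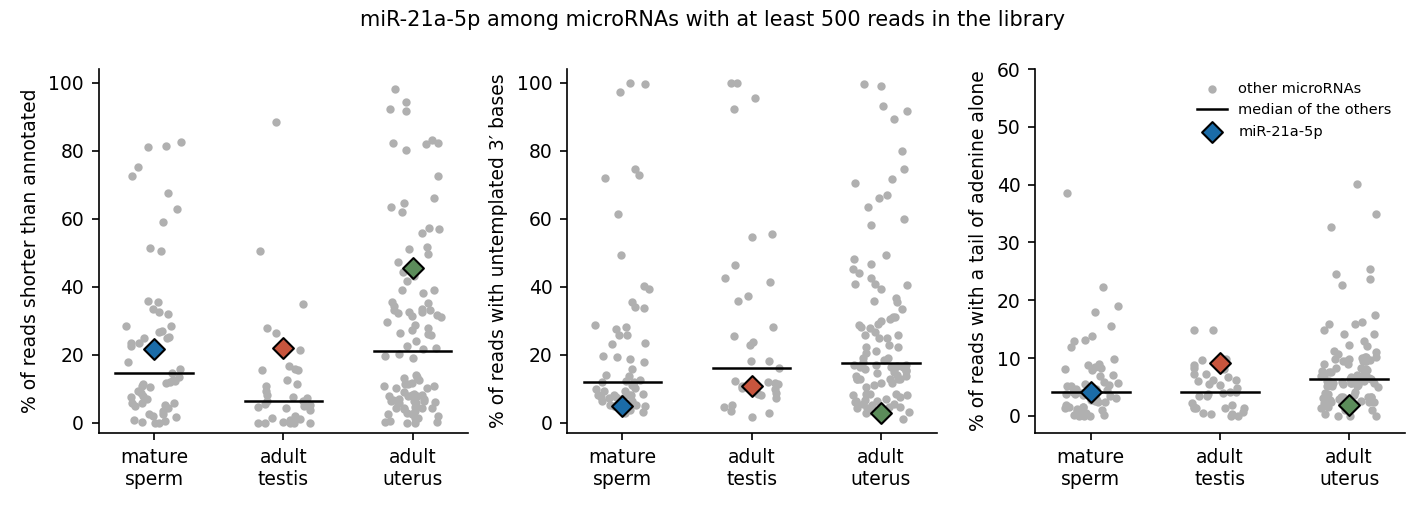
Share of reads shorter than the annotated length (left), with untemplated 3′ bases (middle) and with a tail of adenine alone (right), in percent, by library; grey points are other microRNAs with at least 500 reads, black lines their median and diamonds miR-21a-5p. miR-21a-5p lies above the median for short reads in uterus (45.6% against 21.1%) and below it for tails in each library (5.06%, 10.9% and 3.04% in sperm, testis and uterus).

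The 5′ end of the 5p arm was nearly fixed. With starts up to 3 bases to either side of base 1 allowed, the annotated start held 99.5% of reads in sperm (25495 of 25623), 99.6% in testis (469 of 471) and 99.1% in uterus (106047 of 106969). Reads that began 1 base upstream, which shifts the seed by 1 base, numbered 63 in sperm, or 0.246% (0.189 to 0.314%), 2 in testis, or 0.425% (0.0515 to 1.53%), and 684 in uterus, or 0.639% (0.593 to 0.689%). Their seed, UAGCUUA, belonged to no mature microRNA of the table. Reads that began 1 base downstream numbered 46 in sperm, 0 in testis and 215 in the uterus, and their seed, GCUUAUC, is that of miR-3965. Reads just outside the rule, with 1 substitution in the first 18 bases, numbered 365 in sperm, 4 in testis and 1173 in the uterus. Their share of exact and substituted reads together was 1.41% in sperm, 0.846% in testis and 1.09% in uterus.

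The 3p arm was scarce in every library. It had 1 read in sperm, 0 in testis and 103 in uterus, which is 0.00392% of both arms in sperm (0.0000993 to 0.0219%) and 0.0970% in uterus (0.0792 to 0.118%). In testis the 0 of 469 reads allow a share of up to 0.640% if a count of 0 is taken as at most 3 reads, and the upper Clopper-Pearson bound was 0.783%. The interval in sperm lay below that in uterus; at the uterus share 24.8 reads of the 3p arm would have gone with the 5p reads of sperm, and 0.456 with those of testis, so that a share like that of uterus was not detectable at the depth of testis. In uterus the 5p arm outnumbered the 3p arm by 1030 to 1 (849 to 1262). The rarer arm of other hairpins had a median share of 0.141% in sperm over 42 hairpins with at least 500 reads, 0.0529% in testis over 23 and 0.312% in uterus over 72. It was lower than that of miR-21a in 14 of the 42 in sperm and 24 of the 72 in uterus, and in testis 9 of the 23 were at 0 as well. The lowest share was 0 in sperm and uterus too. A hairpin with 0 reads of its rarer arm counts as lower at any depth from 500 reads. The counts of lower hairpins therefore include any that were too shallow to show a share like that of miR-21a.

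The few 3p reads of uterus had several starts, and many of them ended in bases that the hairpin does not encode. Whether reads of this kind also match elsewhere in the genome was not searched, so that their origin in Mir21a rests on their match to the hairpin. Of the 103 reads with the annotated start, 49 matched it to base 21, 34 to base 22 and 9 to base 23. The leading forms of each start are shown, with untemplated bases in capitals.
annotated start: caacagcagtcgatgggctgtAA
1 base downstream: aacagcagtcgatgggctgtct
2 bases downstream: acagcagtcgatgggctgtctTT
Of 204 uterus reads with a start within 3 bases, 103 began at the annotated base (50.5%, 43.4 to 57.5%), 80 began 1 base downstream (39.2%, 32.5 to 46.3%) and 21 began 2 bases downstream (10.3%, 6.49 to 15.3%). The single most frequent 3p sequence, with 60 reads, began 1 base downstream, and the annotated 22 nt sequence had 14. The seed of the downstream start, ACAGCAG, belonged to no mature microRNA of the table, and that of the start 2 bases downstream, CAGCAGU, is shared with miR-7024-3p. Counting these starts raised the share of the 3p arm in uterus to 0.190% (0.165 to 0.218%).

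**Figure D5:**
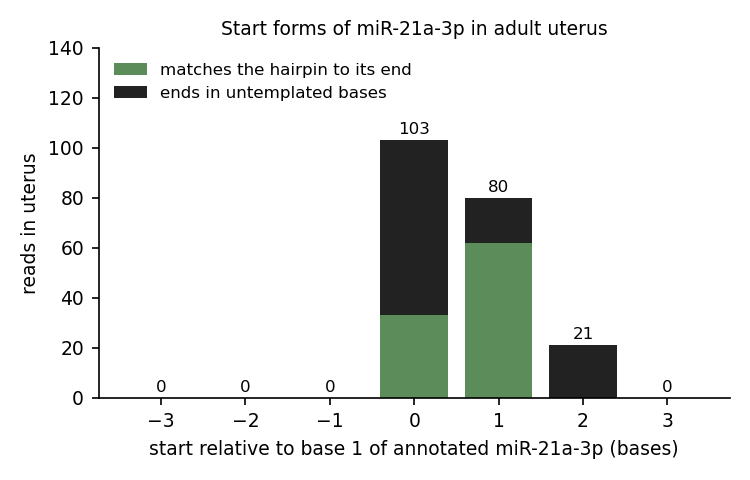
Reads of miR-21a-3p in adult uterus by start relative to annotated base 1 (0 on the axis); the green part of a bar matches the hairpin to its end and the black part ends in untemplated bases. Starts at 0, 1 and 2 hold 103, 80 and 21 reads, of which 70, 18 and 21 are tailed; the 70 include 16 with 1 mismatch followed by matching bases.

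Tails were on 70 of the 103 uterus reads with the annotated 3p start (68.0%, 58.04 to 76.8%), 18 of the 80 that began 1 base downstream (22.5%, 13.9 to 33.2%) and all 21 that began 2 bases downstream. Of the reads with the annotated start, 23 ended in AA after base 21 and 12 in A after base 22. In 16 of the 70 the tail was 1 mismatch followed by bases that match the hairpin again, among them the 15 reads that ended in AU after base 21. Without these 16 the tailed share was 54 of 103 (52.4%, 42.4 to 62.4%), and those of the starts downstream stayed as given. In the 5p arm of uterus the share was 3.04%, and 2.81% without such mismatches. The single sperm read of the 3p arm was the annotated 22 nt sequence.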

How the data were processed

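The deposited tables give a read count for each distinct sequence; the whole numbers carry no sign of scaling. Library making, per the labels' protocols, was adapter ligation followed by reverse transcription and PCR. The submitters' processing notes name the build mm9; the sources used here give no trimming or aligner. Reads were 18 to 44 nt. In the tables of sperm and testis 1 line without a sequence was left out.

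Reads were assigned by the first 18 bases to 1672 mature microRNAs of RefSeq (GRCm38.p6; the table is not complete), with 1660 different starts. Each read was matched to the hairpin from base 1 of the arm, and what followed the longest exact match was called the tail. Mature microRNAs of the lists that the table lacks (miR-34c-5p, miR-143-3p, miR-145a-5p, miR-1a-3p, miR-133a-3p, miR-150-5p and miR-126a-5p) were not used here. Depth was 15690722, 23783785 and 15876066 reads in sperm, testis and uterus, of which 386662, 182344 and 11208661 began as a microRNA. Shares have Clopper-Pearson, levels Poisson and ratios conditional exact binomial 95% intervals. A count of 0 was taken as at most 3.

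The members, lists and rules were chosen with earlier results of these data known. Named items are both arms, forms of at least 1%, microRNAs with the same seed, miR-21b, miR-21c, the 5 nearest profiles and marker lists. A microRNA counted as apart when it had at least 100 reads in the higher library and a ratio of at least 4. The matching and the ratios were tested on simulated data. The simulated tails never began with the next hairpin base, so hidden tails were not covered, and the simulated counts held counting error only. Python 3.11.15, numpy 2.4.6, pandas 2.3.3, scipy 1.17.1, matplotlib 3.10.9, and edgeR 4.0.16 and DESeq2 1.42.0 in R 4.3.3 for scaling factors alone, were used.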

Additional observations from a re-analysis of the deposited data

How the results depend on the processing

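No paired analysis was possible because each group has 1 library. Of 97 alternative values, 50 stayed within the interval of the main value and 46 moved outside it. The other 1 turned round: miR-21a-5p in sperm over uterus had a log2 ratio of −2.04 with all library reads as the denominator. The interval was that of counting error, except for percentiles among other microRNAs. For those it was a binomial interval over the number of other microRNAs. In the order sperm over testis, sperm over uterus and testis over uterus, the log2 ratios that moved were as follows. With all reads the other values were 6.36 and −8.40, and with reads of 20 to 24 nt 4.18, 1.24 and −2.95. Without let-7 and miR-98 the ratios to uterus were 0.59 and −4.00. TMM factors gave 5.30, 0.92 and −4.38 (5.29, 1.12 and −4.17 with at least 10 reads), and DESeq2 size factors 1.38 and −3.33 for the ratios to uterus (1.50 and −3.15). A match of the whole mature sequence gave 5.16, 3.74 and −1.42, 1 allowed substitution 5.17, 2.70 and −2.47, and distinct sequences 1.71, 0.80 and −0.91. The first 20 bases gave 2.82 and −1.73 for the ratios to uterus, and any start within 3 bases 2.75 for sperm over uterus. Of those added after the data were seen, microRNA reads of 18 to 26 nt gave 4.05 and −1.24 for sperm over testis and testis over uterus, and hairpin reads of 20 to 24 nt 2.59 and −2.03 for the ratios to uterus.

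The tailed share among distinct sequences was 85.1% in sperm, 50% in testis and 92.4% in uterus. In uterus it was 2.91% with short tails after base 20 or later and 2.81% without single mismatches, which left 52.4% of the 3p arm tailed, against 68.0%. The share of 23 nt or longer was 41.9% in sperm, 34.9% in testis and 19.0% in uterus among fully templated reads, and 21.2% in uterus by the first 20 bases. The 3p share was 0.190% in uterus with any start and 0% in sperm without single reads. Among microRNAs with most reads at 20 to 24 nt, the templated long reads of testis stood at percentile 100, against 94.3 among all. The cause of these shifts was not tested beyond what each setting leaves out. Depth limits testis most, where 1 read is worth 0.213% of the arm.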

Other observations

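Substitutions within the first 18 bases of miR-21a-5p were spread over many positions. The leading one was G11A in sperm, with 41 reads or 0.159% of exact and substituted reads (0.114 to 0.215%), and G18U in uterus, with 114 reads or 0.106% (0.0877 to 0.128%). In testis the leading one, C9A, had 2 reads.

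A few reads held the start of miR-21a-5p further inside. There were 2 such reads of 1 sequence in sperm, which began as miR-22-3p and ran on into miR-21a-5p, 1 in testis and 3 in uterus, none of which began as another listed microRNA.

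Of the 137 distinct 5p sequences, 14 were seen in all 3 libraries, and their share of the arm was 98.9% in sperm, 94.5% in testis and 98.1% in uterus.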
